A study of Mus musculus with 6 samples.

Results

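Gm33045, 5730419F03Rik, Hectd2os, Neurl3 and Hectd2 are 5 mouse genes, of which the first 4 rose steeply in gastrocnemius muscle that had received a constitutively active aryl hydrocarbon receptor (AHR). They were taken by name from the gene count table, as 5 of its 49315 rows, and all 5 were among the 15847 genes that passed the filter on low counts. Gm33045 and 5730419F03Rik are annotated as long intergenic noncoding RNAs, Hectd2os as a noncoding RNA antisense to Hectd2, and Neurl3 and Hectd2 as protein coding. The first 4 were chosen by their counts in these very libraries, for large rises with little spread, so their levels and fold changes are given as a description with no test. Hectd2 was listed for its place beside Hectd2os.

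RNA was sequenced from the gastrocnemius of male C57BL6J mice that received an AAV9 vector by intramuscular injection at 5 months of age and were harvested 5 months later. The vector carried either a constitutively active mouse AHR that lacks its ligand binding domain (AAV9-HSA-CAAHR, libraries 31, 34 and 36) or the green fluorescent protein ZsGreen1 (AAV9-HSA-GFP, libraries 42, 43 and 46), so n = 3 per group. In both groups the human skeletal actin (HSA) promoter drove the insert in muscle fibres, and muscle without a vector was not analysed here. Libraries held 43432994 to 58825752 counts. Libraries of a group were separate by title and are described as muscles of male mice, and p-values measure the spread between these libraries.

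The AHR is a ligand-activated transcription factor best known for the response to dioxins and to the polycyclic hydrocarbons of smoke. Once active it pairs with ARNT in the nucleus and binds DNA at sites with the core GCGTG, which raises detoxification genes such as Cyp1a1 and Cyp1b1 and its own repressor Ahrr. Many long noncoding RNAs are spliced and polyadenylated as messenger RNAs are, though not all. They hold no long reading frame, and the function of most is unknown. Neurl3 and Hectd2 belong to 2 classes of E3 ubiquitin ligase, the enzymes that choose which proteins receive ubiquitin. Neurl3 is a RING ligase with a Neuralized domain that was described as inducible in lung epithelium during inflammation, and Hectd2 is a HECT ligase, which holds ubiquitin on a catalytic cysteine before passing it on.

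The sequences before the start sites of Neurl3 and Gm33045 are shown because each held the AHR core, and the shortest Gm33045 RNA is shown because Gm33045 rose the furthest of the 5. RefSeq promoter windows, each running from 250 bases before to 50 bases after a start site on GRCm38.p6, were matched for 3 of the 5 genes, with 2 windows for Gm33045 and 1 each for Hectd2os and Neurl3. The 250 bases before the start site are printed 5′ to 3′ on the strand of the gene, with GCGTG in capitals. The Neurl3 stretch is chr1:36273426-36273675 on the minus strand and the Gm33045 stretch, from its second start site, is chr13:110627722-110627971 on the plus strand.
Neurl3: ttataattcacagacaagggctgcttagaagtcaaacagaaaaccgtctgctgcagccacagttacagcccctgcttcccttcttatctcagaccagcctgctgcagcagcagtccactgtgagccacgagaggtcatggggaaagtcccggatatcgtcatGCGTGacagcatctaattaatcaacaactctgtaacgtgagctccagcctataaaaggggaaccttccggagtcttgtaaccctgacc
Gm33045: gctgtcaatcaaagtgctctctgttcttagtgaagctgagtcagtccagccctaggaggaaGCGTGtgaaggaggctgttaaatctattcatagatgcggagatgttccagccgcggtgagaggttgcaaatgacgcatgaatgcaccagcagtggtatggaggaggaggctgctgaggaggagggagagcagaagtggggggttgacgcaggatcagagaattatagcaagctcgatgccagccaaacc
The GCGTG of Neurl3 lay 88 to 84 bases before the start site (chr1:36273509-36273513) and that of Gm33045 lay 189 to 185 bases before it (chr13:110627783-110627787). Either strand was searched, and the letters were absent from the first Gm33045 window and from the Hectd2os window. The motif is common: it was in 35.2% of all 27025 genes with a window and in 54.2% of the 11230 tested genes with one, and the 2 of 3 matched genes here are read against that background only. Among 101 other genes called higher by more than 2-fold, 43.6% held it. The longer form TNGCGTG, which contains GCGTG, was in none of the 4 windows and so in none of the 3 matched genes. It was in 5.84% of all genes with a window and in 9.05% of the tested genes with one.

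The Gm33045-201 transcript in GENCODE (M21, GRCm38) joins 3 exons between chr13:110627288-110629211 into 384 bases, of which the last 214 are printed here as DNA letters. Its longest reading frame from an ATG, in capitals, runs over 53 codons from base 196 to base 357.
Gm33045-201, bases 171 to 384: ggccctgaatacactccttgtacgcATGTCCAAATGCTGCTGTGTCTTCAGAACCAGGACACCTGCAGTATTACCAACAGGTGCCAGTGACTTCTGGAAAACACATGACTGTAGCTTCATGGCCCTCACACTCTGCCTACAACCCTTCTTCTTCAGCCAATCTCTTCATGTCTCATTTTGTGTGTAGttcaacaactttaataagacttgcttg
The other 2 Gm33045 transcripts, of 975 and 949 bases, held longest frames of 55 codons each. The 2092 base RNA of 5730419F03Rik also reached 53 codons, and the 8 Hectd2os transcripts reached 14 to 73 codons. By the same search, the longest frame of the main Neurl3 transcript was 254 codons. No annotated miRNA hairpin lay inside any of the 5 genes.

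Ahr, the delivered gene, was at 9.97, 22.8 and 17.3 CPM, the share of a library's counts after TMM scaling, in CAAHR libraries 31, 34 and 36 and at 2.47, 2.55 and 1.87 in GFP libraries 42, 43 and 46. The counts do not separate the delivered Ahr from the animal's own. Its log2 fold change of 2.87 ± 0.31 (SE) passed edgeR's quasi-likelihood test with Benjamini-Hochberg adjustment over all tested genes (adjusted p = 0.00229). Across the table this test called 1205 genes (7.6%), 481 higher (3.04%) and 724 lower (4.57%) with CAAHR. In bulk muscle, fewer cells of a type and less RNA per cell cannot be told apart.

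Gm33045 (ENSMUSG00000109853, chr13:110627288-110642730, plus strand) was close to undetected in GFP muscle and well measured in CAAHR muscle. It received 700, 1147 and 1108 counts in the CAAHR libraries and 12, 4 and 8 in the GFP libraries. As CPM these were 13.8, 20.1 and 18.2 with CAAHR and 0.249, 0.0961 and 0.151 with GFP. The groups lay far apart, since the lowest CAAHR library stood 55.7-fold above the highest GFP library. The group means were 17.4 ± 3.19 and 0.165 ± 0.0773 CPM (SD, n = 3), a log2 fold change of 6.67 ± 0.27 (SE), or 102-fold. Only 4 of the 481 genes called higher had a larger fitted log2 fold change, a rank that restates the rise that chose Gm33045 and supports nothing. The GFP level rests on 4 to 12 reads per library, so the size of the fold is less certain than the CAAHR level. Gm33045 passed the filter on low counts only through the CAAHR libraries.

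Neurl3 (ENSMUSG00000047180, chr1:36264597-36274679, minus strand) reached the highest CPM of the 5. Its counts were 1657, 3062 and 2758 with CAAHR and 108, 136 and 115 with GFP. In CPM it stood at 32.8, 53.6 and 45.2 in the CAAHR libraries and at 2.24, 3.27 and 2.17 in the GFP libraries. Every CAAHR library lay far above every GFP library. The means of 43.9 ± 10.5 and 2.56 ± 0.615 CPM gave a log2 fold change of 4.11 ± 0.23, or 17.2-fold.

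5730419F03Rik (ENSMUSG00000099364, chr1:78595031-78609508, minus strand) is annotated with 1 transcript of 2 exons. Its counts were 424, 536 and 664 with CAAHR and 55, 51 and 37 with GFP. These made 8.38, 9.38 and 10.9 CPM in the CAAHR libraries and 1.14, 1.23 and 0.699 CPM in the GFP libraries. The groups did not overlap, and the gap between the nearest libraries was 6.84-fold. The means were 9.55 ± 1.26 and 1.02 ± 0.283 CPM, with a log2 fold change of 3.23 ± 0.22, or 9.41-fold.

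Hectd2os (ENSMUSG00000087579, chr19:36614052-36705641, minus strand) had the tightest groups of the 4 raised genes. It received 1612, 2236 and 2174 counts with CAAHR and 349, 253 and 359 with GFP. The levels were 31.9, 39.1 and 35.7 CPM in the CAAHR libraries and 7.23, 6.08 and 6.78 CPM in the GFP libraries. The lowest CAAHR library was 4.41-fold above the highest GFP library. The means of 35.6 ± 3.63 and 6.70 ± 0.580 CPM gave a log2 fold change of 2.41 ± 0.12, or 5.30-fold. Unlike Gm33045, Hectd2os was well above detection in GFP muscle.

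Hectd2 (ENSMUSG00000041180, chr19:36554639-36621135, plus strand) did not follow its antisense neighbour. Its counts were 282, 321 and 281 with CAAHR and 355, 288 and 232 with GFP. This was 5.58, 5.62 and 4.61 CPM in the CAAHR libraries and 7.36, 6.92 and 4.38 CPM in the GFP libraries. The groups overlapped, with the lowest value of the 6 in GFP 46. The means were 5.27 ± 0.570 and 6.22 ± 1.61 CPM, with a log2 fold change of -0.24 ± 0.20 (95% interval -0.69 to 0.21) that missed the threshold (edgeR adjusted p = 0.522). The interval spans values below and above 0 and does not reach a rise the size of that of Hectd2os.

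**Figure D1:**
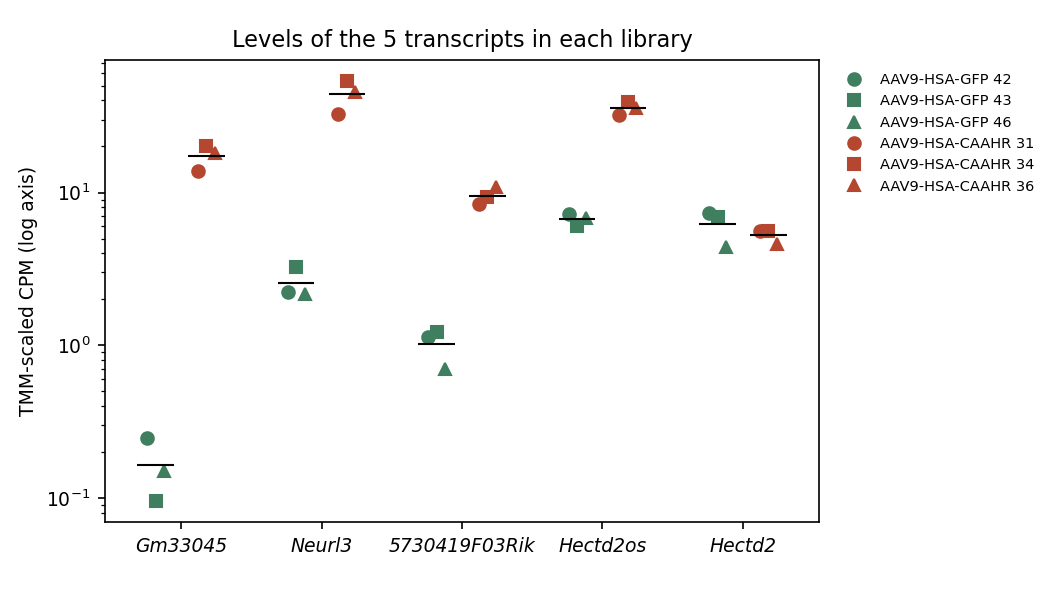
Each point is 1 library, as TMM-scaled CPM on a log axis, and each bar is the mean of 3 libraries of a group. The CAAHR libraries (red) stand above all GFP libraries (green) for Gm33045, Neurl3, 5730419F03Rik and Hectd2os, and the groups overlap for Hectd2.

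Over all tested genes, 15% had CAAHR libraries wholly above the GFP libraries, 0.972% were called higher by more than 2-fold and 3.48% were called by more than 2-fold in either direction. The 4 raised genes were chosen for lying in those sets, so nothing is read from their membership.

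**Figure D2:**
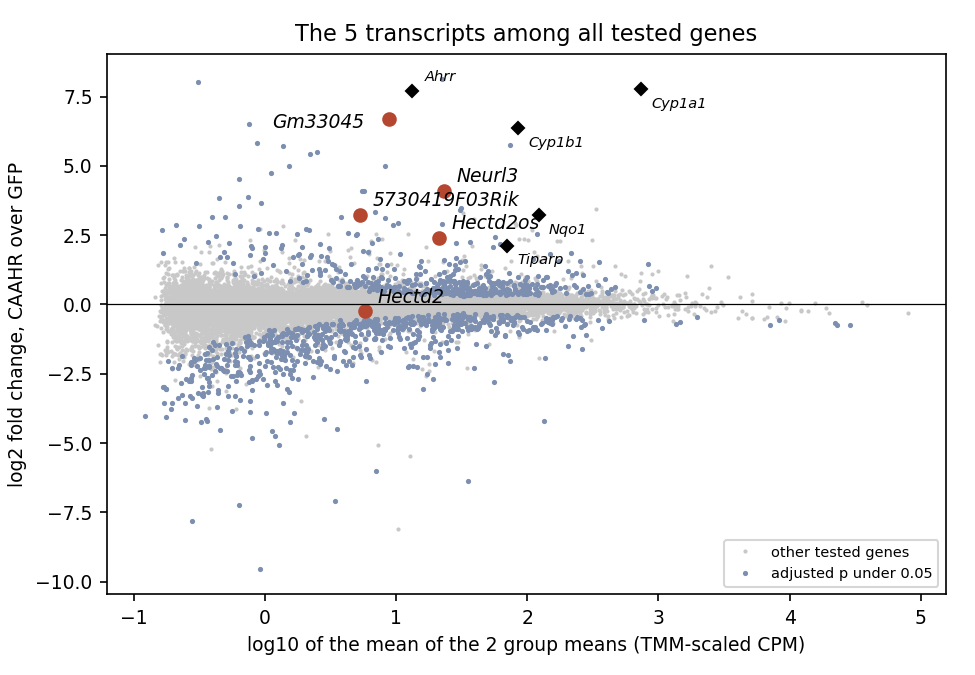
Fitted log2 fold change against mean level for the 15847 tested genes, with genes of adjusted p under 0.05 in blue, the 5 listed genes in red and 5 known AHR target genes as black diamonds. Gm33045 lies between Ahrr and Cyp1b1 in fold change at a lower level than either, and Hectd2 lies near 0.

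Per kilobase of exon the order of the levels changed with the vector. In CAAHR muscle Hectd2os stood at 16.6 ± 1.69 CPM per kb of exon not shared with another gene, Gm33045 at 14.4 ± 2.64 and Neurl3 at 13.6 ± 3.26. These 3 neighbours in the order differed by less than their spread. 5730419F03Rik followed at 4.57 ± 0.604 and Hectd2 was lowest at 0.728 ± 0.0789. In GFP muscle Hectd2os led at 3.13 ± 0.271 CPM per kb. Hectd2 at 0.860 ± 0.222 and Neurl3 at 0.796 ± 0.191 lay within each other's spread. 5730419F03Rik stood at 0.488 ± 0.135 and Gm33045 was lowest at 0.137 ± 0.0639. Gm33045 thus went from the lowest of the 5 in GFP muscle to a level like that of Neurl3 in CAAHR muscle.

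Hectd2 and Hectd2os lie on opposite strands and overlap tail to tail over 7084 bases. Their annotated exons share 1834 bases, which is 46.1% of the exon bases of Hectd2os and 20.2% of those of Hectd2. Whether the libraries kept the strand is not given in the sources used here, so the counting was checked on genes wholly covered by exons of a gene on the opposite strand with at least 1000 counts. Of 114 such genes, 111 (97.4%) had 0 counts in all libraries, as had 20 of 21 genes (95.2%) covered on the same strand. Counting that drops shared reads and stranded counting of silent genes would both give such zeros, and the check does not tell them apart. If shared reads were dropped, the counts of the pair rest on 2143 bases of Hectd2os and 7232 bases of Hectd2, the lengths used here, and without strand the reads of one could be credited to the other. Over all annotated exon bases, Hectd2os stood at 8.94 ± 0.912 and 1.68 ± 0.146 CPM per kb with CAAHR and GFP and Hectd2 at 0.581 ± 0.0629 and 0.686 ± 0.177. Hectd2os then came below Gm33045 and Neurl3 with CAAHR and still led with GFP.

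The ratio of Hectd2os to Hectd2 counts shows the divergence of the pair within each library. It was 5.72, 6.97 and 7.74 in CAAHR libraries 31, 34 and 36. In GFP libraries 42, 43 and 46 it was 0.983, 0.879 and 1.55. Per kilobase of unshared exon the antisense RNA exceeded Hectd2 in every library, by 19.3-fold, 23.5-fold and 26.1-fold with CAAHR and by 3.32-fold, 2.97-fold and 5.22-fold with GFP. Over all exon bases it exceeded Hectd2 in every library too, by up to 17.6-fold with CAAHR and up to 3.53-fold with GFP. The rise of the ratio follows from the rise that chose Hectd2os, and the part added here is that Hectd2 itself stayed within its spread between libraries.

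**Figure D3:**
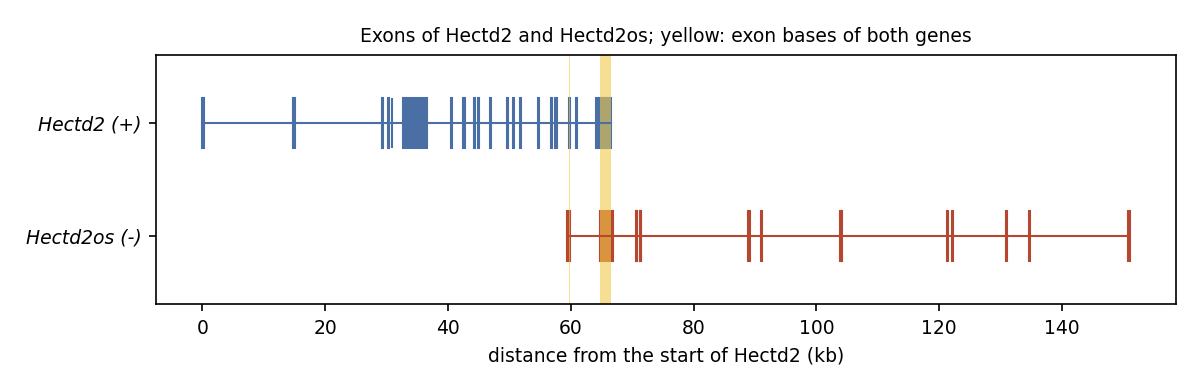
Annotated exons (boxes) of Hectd2 (plus strand) and Hectd2os (minus strand) against the distance from the start of Hectd2 in kb, with exon bases of both genes in yellow. The 1834 shared bases lie at the end of Hectd2, and most exons of either gene lie outside them.

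Among the CAAHR libraries the 4 raised genes shared their lowest library. Library 31 was the lowest of the 3 for Gm33045, Neurl3, 5730419F03Rik and Hectd2os, at 0.797, 0.747, 0.878 and 0.897 of the respective group mean. Library 31 was also the lowest for Ahr, at 0.597 of its group mean, and for Cyp1a1, Ahrr, Cyp1b1, Nqo1 and Tiparp, at 0.729 to 0.905. Library 34 was the highest for Gm33045, Neurl3 and Hectd2os, as for Ahr, while library 36 was the highest for 5730419F03Rik and Ahrr. With 3 libraries that share their scaling this is a description only. The coefficient of variation over the CAAHR libraries was 18.4% for Gm33045, 23.9% for Neurl3, 13.2% for 5730419F03Rik, 10.2% for Hectd2os and 10.8% for Hectd2. In GFP muscle it was 46.7%, 24.0%, 27.7%, 8.66% and 25.8% in the same order.

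**Figure D4:**
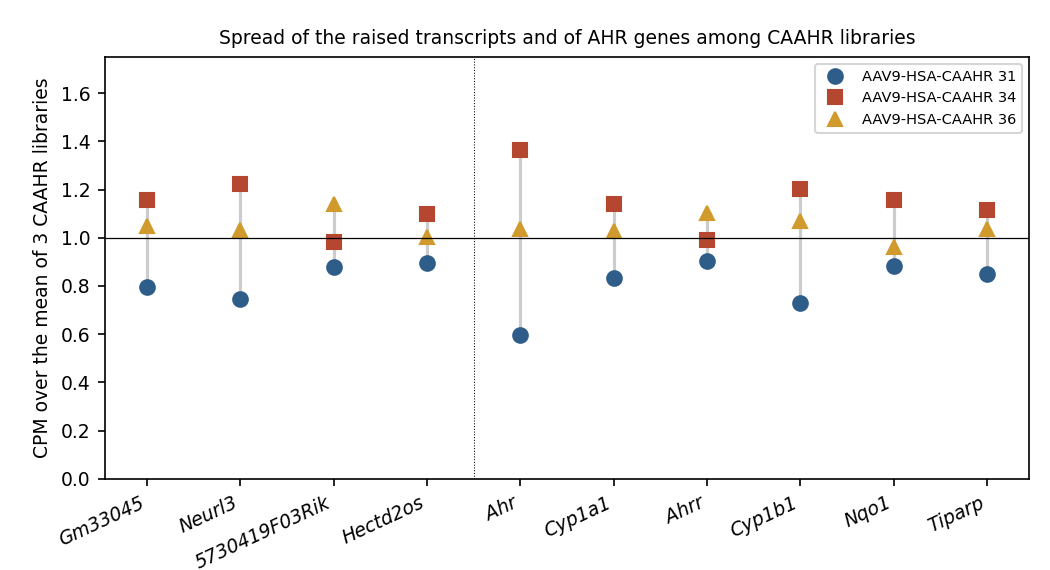
CPM in each CAAHR library divided by the mean of the 3 CAAHR libraries, for the 4 raised genes (left of the dotted line) and for Ahr and 5 AHR target genes. Library 31 is the lowest point for all 10 genes, from 0.597 (Ahr) to 0.905 (Ahrr).

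The known AHR targets give the scale for these rises. Of 15 listed target genes, 9 passed the filter and 6 were called higher and 0 lower, against 3.04% higher over all tested genes, with a median log2 fold change of 2.12 against 0.01 over all. Cyp1a1, a monooxygenase of polycyclic hydrocarbons, rose by 7.77 ± 0.20 on the log2 scale, Ahrr, the AHR repressor, by 7.69 ± 0.22, and Cyp1b1, a second monooxygenase, by 6.36 ± 0.24. Nqo1, a quinone reductase, rose by 3.21 ± 0.13, Tiparp, an ADP-ribosyltransferase that restrains AHR, by 2.12 ± 0.15, and Nfe2l2, the antioxidant regulator NRF2, by 0.69 ± 0.12. Their edgeR adjusted p-values ran from 1.11e-07 (Cyp1a1) to 0.0107 (Nfe2l2). Ahrr stood at only 0.187, 0.120 and 0.0755 CPM in GFP libraries 42, 43 and 46. It passed the filter on low counts only through the CAAHR libraries, so the size of its fold is uncertain. With at least 10 counts in every library, 5 of 8 tested target genes were called higher and 0 lower. Aldh3a1, Scin and Xdh, with log2 fold changes of 0.80, 0.37 and 0.26, did not pass. Over the other fits they ran from -0.12 to 1.14, 0.09 to 0.56 and 0.03 to 0.65, the lowest Aldh3a1 value coming without CAAHR 31, where its level was 1.42 CPM against 0.333 and 0.427 in CAAHR 34 and 36. In fold change Gm33045 lay near Cyp1b1, 5730419F03Rik within its SE of Nqo1, Hectd2os near Tiparp, and Neurl3 between Cyp1b1 and Nqo1, with no test of these differences. Of the 7 genes of the receptor machinery only Ahr was called, and its partner Arnt had a log2 fold change of -0.03 (adjusted p = 0.908), which turned above 0 with scaling by library size only and without GFP 42.

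Profiles over the 6 libraries were compared by the root mean square distance between centred log2 CPM values. The nearest genes to Gm33045 were Cyp1b1 at 0.424, Ahrr at 0.547 and Tph1, an enzyme of serotonin synthesis, at 0.742. Nearest to Hectd2os were Tiparp at 0.162, the zinc finger gene Zfp503 at 0.195 and the lysosomal transporter gene Slc15a4 at 0.217. Nqo1 at 0.321, the imprinted zinc finger gene Peg3 at 0.334 and Lingo1 at 0.342 came nearest to 5730419F03Rik. For Neurl3 these were Gabrd, a subunit of the GABA-A receptor, at 0.218, the cytokine gene Il19 at 0.244 and Rtn4rl2 at 0.258. Il19 received 0 counts in every GFP library and 26, 35 and 44 with CAAHR, so its profile depends on the prior count of 2 added before the log. Cenpq, Gm45902 and Isoc1 were nearest to Hectd2, at 0.0609, 0.0644 and 0.0838. The profiles of the 4 raised genes are mostly the step between groups that chose them, so these distances are a description and support nothing.

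The other genes around the 5 were not used to choose them and were counted in the same fit while place chose Hectd2 alone, as the neighbour of Hectd2os. Within 500 kb, 35 other tested genes were found, of which 10 (28.6%) were called higher and 2 (5.71%) lower, against 3.04% and 4.57% over all tested genes. Their median log2 fold change was 0.19 against 0.01 over all. With at least 10 counts in every library, 9 of 29 tested neighbours were called higher and 2 lower. Around the 150 other genes called higher by more than 2-fold, 88 of 1601 tested neighbours (5.5%) were called higher. In that count the 150 genes could be neighbours of each other, while the 5 genes were left out of both counts. Acsl3, Utp14b, BC035947, Plk2 and Ankrd1 were among the 150 and also among the neighbours of the 5. The 2 shares are thus not built alike. The neighbours of the 5 are few, lie in 4 stretches of the genome and are not independent of each other, so the counts are given with no test of the set.

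The genes beside 5730419F03Rik showed the largest differences. Acsl3, a long-chain acyl-CoA synthetase that starts 48.3 kb away, stood at 171, 236.5 and 195 CPM with CAAHR and at 33.0, 45.7 and 24.7 CPM with GFP. The groups did not overlap, and its log2 fold change was 2.54 ± 0.23 (edgeR adjusted p = 0.00109). Utp14b, a ribosomal RNA processing gene that lies inside Acsl3 on the same strand, rose by 1.46 ± 0.20 (adjusted p = 0.00278), and its value is uncertain because the bodies overlap. On the other side, 82.9 kb away, BC035947 received 32, 98 and 78 counts with CAAHR and 1, 6 and 0 with GFP. Its log2 fold change of 4.54 ± 0.78 (adjusted p = 0.0111) rests on almost no reads in GFP muscle. BC035947 passed the filter on low counts only through the CAAHR libraries, so nothing is read from its call. It is absent from the neighbours with at least 10 counts in every library. Farsb, a subunit of phenylalanine tRNA synthetase 106 kb away on the same side, was at -0.24 ± 0.08 (adjusted p = 0.112). Kcne4, a potassium channel subunit 207 kb away, fell by 1.17 ± 0.21 on the log2 scale (1.80 ± 0.0304 against 4.08 ± 1.11 CPM, adjusted p = 0.0114).

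Plk2, a stress-inducible polo-like kinase 226 kb from Gm33045, was the single tested gene within 500 kb of it. It stood at 30.8, 90.8 and 59.8 CPM with CAAHR and at 11.7, 14.8 and 11.5 CPM with GFP. Every CAAHR library exceeded every GFP library, with a wide spread among the former. Its log2 fold change of 2.26 ± 0.42 passed (adjusted p = 0.0365), and the call was lost with no filter on low counts, without CAAHR 36 and without any of the 3 GFP libraries.

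Around Neurl3 the neighbours moved little beside its own 17.2-fold rise. The nearest genes, Uggt1 at 19.9 kb, a glucosyltransferase of glycoprotein folding, and Arid5a at 33.1 kb, an RNA-binding protein of inflammation, had log2 fold changes of 0.16 ± 0.10 (adjusted p = 0.356) and 0.37 ± 0.13 (adjusted p = 0.107). Farther out on the side of Arid5a, 5 genes were called higher between 61.1 and 255.5 kb. Fer1l5, a ferlin linked to myoblast fusion, rose by 0.79 ± 0.12 (8.14 ± 0.351 against 4.72 ± 0.301 CPM, adjusted p = 0.00601), and Lman2l, a cargo lectin of the secretory pathway, by 0.72 ± 0.11 (adjusted p = 0.00434). The ends of these 2 genes overlap by 2240 bases on opposite strands. Ankrd23, a muscle ankyrin repeat gene, rose by 0.66 ± 0.13 (1036 ± 136 against 656 ± 48.2 CPM, adjusted p = 0.0167). Kansl3, of a histone acetyltransferase complex, and Cnnm4, a magnesium transporter, rose by 0.34 ± 0.09 and 0.66 ± 0.17 (adjusted p = 0.0444 and 0.0465). Sema4c, a semaphorin, fell by 0.68 ± 0.14 on the log2 scale (adjusted p = 0.0194). The call for Kansl3 was lost with upper quartile scaling and in every fit without 1 library. That for Cnnm4 was lost with upper quartile scaling, with edgeR without robust estimation and in every fit without 1 library except that without CAAHR 34. The call for Ankrd23 was lost without CAAHR 36, GFP 43 or GFP 46, and that for Sema4c without CAAHR 31, CAAHR 36 or GFP 43. The calls for Fer1l5 and Lman2l held in all 14 other fits.

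Around the Hectd2 pair 1 gene was called. Ankrd1, a stretch-responsive ankyrin repeat gene 434 kb from Hectd2 and 494 kb from Hectd2os, rose by 1.40 ± 0.17 (21.8 ± 3.22 against 8.26 ± 1.85 CPM, adjusted p = 0.00212). Ppp1r3c, a glycogen targeting subunit 26.1 kb beyond Hectd2os, stood at 916, 990 and 899.5 CPM with CAAHR and at 404, 773 and 388 CPM with GFP. Its groups did not overlap, yet GFP 43 lay close to the CAAHR libraries and the log2 fold change of 0.84 ± 0.26 did not pass (adjusted p = 0.0907). It was called with no filter on low counts, with DESeq2 and without GFP 43, where it reached at most 1.24. Btaf1, a regulator of TATA-binding protein 220 kb beyond Hectd2os, was at 0.78 ± 0.24 (adjusted p = 0.0879) and was called with no filter, with DESeq2 and without CAAHR 36. Pcgf5, a Polycomb subunit 93.7 kb on the other side of Hectd2, was at -0.08 ± 0.10 (adjusted p = 0.678).

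**Figure D5:**
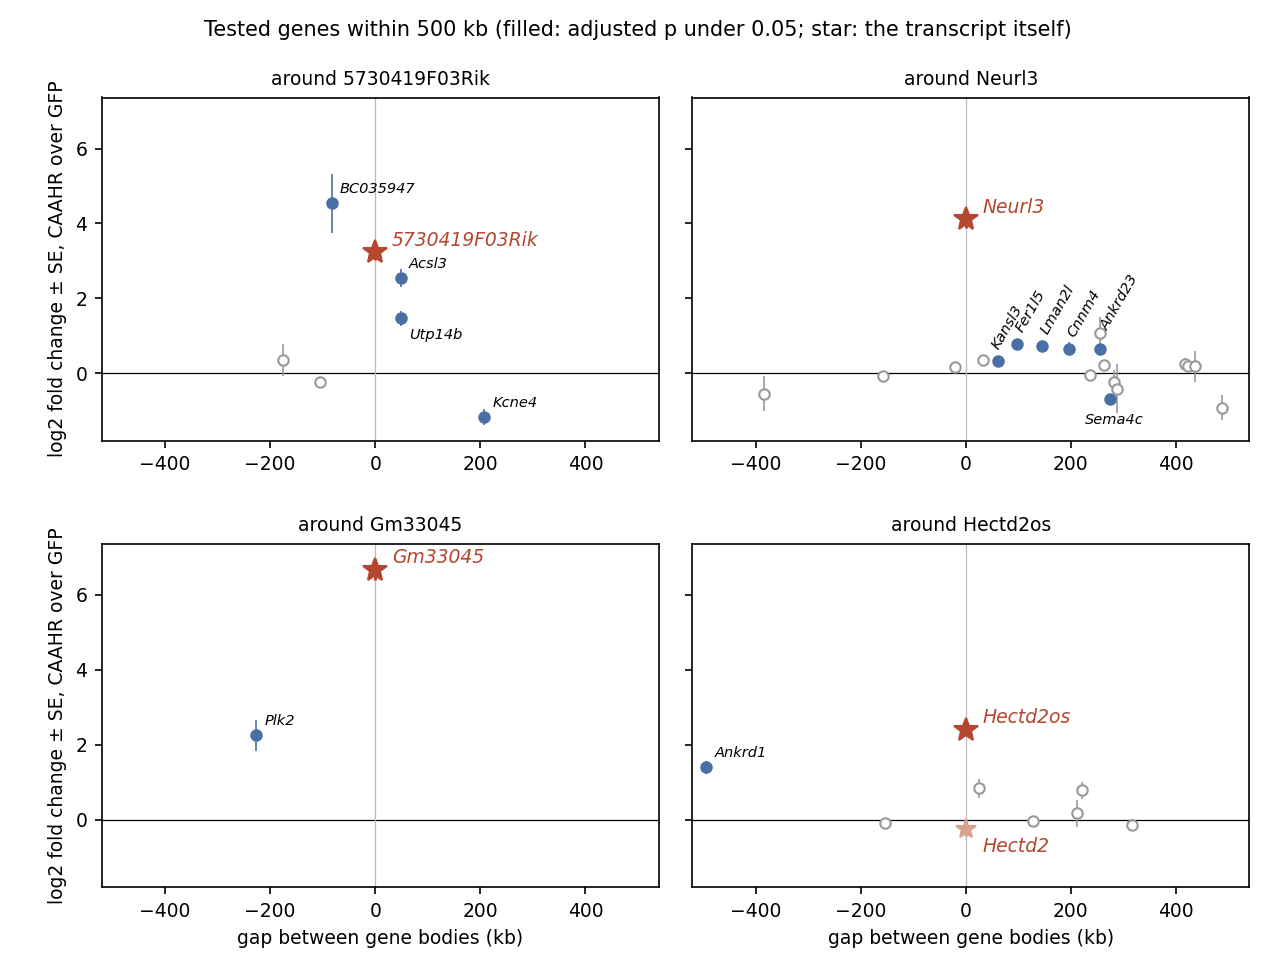
Fitted log2 fold change ± SE of tested genes within 500 kb against the gap between gene bodies in kb, left of 0 toward lower coordinates, with filled points for adjusted p under 0.05 and a star for the listed gene. Filled points above 0 appear around each of the 4, the largest being BC035947 and Acsl3 beside 5730419F03Rik. BC035947 received 1, 6 and 0 counts in GFP libraries 42, 43 and 46.

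Noncoding genes as a class lay near the background of all genes. Of 1095 other tested noncoding genes, 30 (2.74%) were called higher and 37 (3.38%) lower, against 3.04% and 4.57% over all genes, with a median log2 fold change of -0.03. Gm33045, 5730419F03Rik and Hectd2os were more abundant than the 5 other noncoding genes with the largest rises, which reached at most 1.49 CPM in the CAAHR mean. Both sets were chosen by their rises, and the remaining noncoding genes called higher were not compared, so nothing is read from this difference. Gm45881 received 26, 138 and 93 counts with CAAHR and 1, 0 and 1 with GFP, at least 23.3-fold higher when GFP is set to 3 counts per library. Its neighbour on chromosome 9, Gm26614, had means of 1.39 ± 0.657 and 0.0991 ± 0.104 CPM and a log2 fold change of 3.87 ± 0.66 (adjusted p = 0.0104). Gm47328 and 5830418P13Rik, an annotated antisense RNA, also adjacent on chromosome 9, had log2 fold changes of 3.56 ± 0.40 (adjusted p = 0.00119) and 3.14 ± 0.53 (adjusted p = 0.00838). Gm26614, Gm47328 and 5830418P13Rik received at most 9, 6 and 7 counts in any GFP library. They passed the filter on low counts only through the CAAHR libraries, as did Gm45881 and Gm42788. The size of these folds is thus uncertain, and nothing is read from the calls of these genes. With at least 10 counts in every library, 19 of 820 other noncoding genes were called higher and 33 lower. Gm42788 received 10, 37 and 16 counts with CAAHR and 2, 2 and 3 with GFP, at least 5.80-fold higher on the same floor, and its call was lost in 5 of the 6 fits without 1 library.

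No other tested gene of the Neurl3 family was called higher. Of 10 tested Neuralized, Mind bomb and Notch ligand genes, 0 were called higher and 1 lower, against 3.04% and 4.57% over all tested genes, with a median log2 fold change of -0.04. These counts lie near that background. Neurl1a, Neurl1b, Neurl2 and Neurl4 had log2 fold changes of -0.03, 0.05, -0.18 and 0.13, of which the first turned above 0 with scaling by library size only and without CAAHR 31, and the second below 0 with upper quartile scaling, without CAAHR 31 and without GFP 43. Mib1, a ligase that readies Notch ligands for signalling, fell by 0.83 ± 0.15 on the log2 scale (186 ± 38.2 against 331 ± 22.1 CPM, adjusted p = 0.0115), a call lost without GFP 46. Of 25 other HECT ligase genes, 2 were called higher and 1 lower, which also lies near the 3.04% and 4.57% over all tested genes, with a median of 0.19. Huwe1 and Arel1 rose by 0.43 ± 0.10 and 0.50 ± 0.10 (adjusted p = 0.0285 and 0.0167). Nedd4l, which sets the surface level of sodium channels, fell by 0.78 ± 0.13 on the log2 scale (adjusted p = 0.00722). The call for Huwe1 was lost with upper quartile scaling and without CAAHR 31, CAAHR 36, GFP 43 or GFP 46, and that for Arel1 without CAAHR 36 or GFP 46.

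Other cell types and fibre types also moved between the groups. Marker genes were summed in each library, and their counts called lower are set against 4.57% over all tested genes. B and plasma cell markers (5 of 8 tested called lower) summed to 11.2 to 19.8 CPM with CAAHR and 145 to 579 CPM with GFP. Neutrophil markers (5 of 6 lower) summed to 2.52 to 3.58 and 14.4 to 31.4 CPM. Macrophage markers (8 of 8 fitted lower, 0 called) summed to 19.7 to 35.0 and 40.9 to 81.9 CPM. T and NK cell markers (2 of 2 fitted lower, 0 called) summed to 1.02 to 1.70 and 2.38 to 8.58 CPM. The authors report by qPCR that selected immune genes were not lower in CAAHR-treated mice than in naive mice without AAV. From this they propose that the AAV-GFP treatment itself promoted a local immune response in muscle. GFP muscle may thus not be a neutral baseline for these immune markers. Slow fibre markers summed to 2913, 683 and 2665 CPM in CAAHR libraries 31, 34 and 36 and to 239 to 520 CPM with GFP, with 9 of 9 fitted higher and 0 called. Among the CAAHR libraries, Gm33045, Neurl3 and Hectd2os were highest in 34, where the slow fibre sum was lowest, and 5730419F03Rik was highest in 36, where that sum was 2665 CPM. Skeletal muscle fibre markers (4 of 10 lower) summed to 1.44e+05 to 1.81e+05 CPM with CAAHR and 2.14e+05 to 2.15e+05 CPM with GFP, so muscle fibre RNA was abundant in all 6 libraries. Of these 10 skeletal muscle fibre markers, 6 were fitted lower and 4 higher, with 0 called higher. Myh2, Myh1, Neb and Ttn were fitted higher, with log2 fold changes of 1.38, 0.997, 0.38 and 0.03. Myh4, the largest part of each sum, had a log2 fold change of -0.31 and did not pass (edgeR adjusted p = 0.325). Endothelial markers (0 of 7 called, 195 to 273 and 201 to 247 CPM) and fibroblast markers (0 of 6, 353 to 714 and 531 to 664 CPM) overlapped between the groups. Adipocyte markers (1 of 5 lower) summed to 85.1 to 133 and 88.9 to 199.5 CPM, sums made mostly of Fabp4 (104 ± 18.6 against 106 ± 30.5 CPM). Of the other 4, Plin1 had a log2 fold change of -2.77 (edgeR adjusted p = 0.0473) and Adipoq, Cidec and Lep had values between -2.09 and -1.65 without passing. No marker gene of these cell types was at 0 in all 6 libraries. The part of these lists in the levels of the 5 genes was not tested.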

How the data were processed

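Gene counts were analysed for 6 mouse gastrocnemius libraries, 3 per group by sample title. As described by the authors, poly(A)-selected paired-end reads were trimmed with Trimmomatic 0.36, aligned to GRCm38 with STAR 2.5.2b (versions also in the submitters' processing notes) and summed by gene with featureCounts over unique reads in exons. The deposited values are raw whole-number counts, with no normalization or pooling. The 174 rows with no gene symbol held 0.0154% of counts and were kept under their Ensembl identifiers. Of the gene identifiers, 49056 were found in GENCODE M21.

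Counts were filtered with filterByExpr, scaled by TMM and fitted with edgeR 4.0.16 (robust quasi-likelihood F test, R 4.3.3), with Benjamini-Hochberg adjustment over 15847 genes and a threshold of 0.05. The fit was tested on simulated data. Alternatives were other scalings, filters, DESeq2 1.42.0 (the tool of the study), limma-voom (limma 3.58.1), windows, a longer motif and leaving out each library. Same-group libraries were no duplicates, with a chi-square of their counts over degrees of freedom of 21.6 or more. Log2 CPM correlated at 0.982 to 0.988 within groups and 0.965 to 0.975 between them.

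The 5 genes and all lists were chosen with earlier results of these data known. Named were the 5 genes, called neighbours within 500 kb and the nearest tested one on each side, the 5 other noncoding genes with the largest rises, listed AHR, HECT and Neuralized genes (1 HECT gene is not reported here), and the 3 nearest profiles per gene. Farsb and Btaf1 were named after their values were seen, lengths over all exon bases of the Hectd2 pair were tried after seeing the data, and the neighbours of the 150 other raised genes were counted after the data had been seen. Promoter windows are RefSeq's. Intervals are 95%.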

Additional observations from a re-analysis of the deposited data

How the results depend on the processing

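The log2 fold changes ran over 6.44 to 7.08 for Gm33045 (13 fits, since it did not pass a filter of 10 counts in every library), 3.93 to 4.31 for Neurl3, 3.01 to 3.38 for 5730419F03Rik and 2.32 to 2.49 for Hectd2os (14 fits each). All lay within 1 SD of the reported value, where SD is that of log2 CPM between libraries, pooled over the groups. This SD is not the SE of the fold. For Gm33045 the value of 7.08, without GFP 42, lay more than its SE of 0.27 from the reported value. Hectd2 ran from -0.44 to -0.10 and was called in 0 of 14 fits (adjusted p 0.170 to 0.858). The 1205 called genes became 2470 with no filter on low counts, 1919 with DESeq2, and 530 to 1727 with 1 library left out, the count falling by more than 1.5 times without CAAHR 31 (694), CAAHR 36 (530), GFP 43 (701) or GFP 46 (604). The split of 481 higher and 724 lower became 358 and 990 with upper quartile scaling and 876 and 600 with library size only, while the median of all genes moved by -0.07 and 0.08. The 12 called neighbours became 5 of 9 tested within 100 kb, all higher, and stayed at 12 of 49 within 1000 kb, with 8 to 11 when 1 library was left out. They were 11 of 29 tested with at least 10 counts in every library. The 30 noncoding genes called higher became 56 with no filter, 19 with at least 10 counts in every library and 11 to 41 with 1 library left out (11 without CAAHR 36, 17 without GFP 43, 13 without GFP 46). The 3 called HECT genes became 5 with library size only, 2 with upper quartile scaling and 1 to 3 with 1 library left out (2 without CAAHR 31 or GFP 43, 1 without CAAHR 36 or GFP 46). With TNGCGTG, 0 genes in place of 2 held the motif, as the longer motif is rarer by construction. For the other changes the cause was not tested. AHR targets called higher stayed at 5 to 7. No paired analysis was possible because replicate numbers differ in full between CAAHR and GFP libraries. Levels of Gm33045 in GFP muscle, at 4 to 12 counts, are limited by depth.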
